A study of Mus musculus with 46 samples.

Results

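The cytosolic ribosomal proteins were followed through 46 RNA-sequencing libraries of mouse AML12 cells, a hepatocyte line, and of mouse liver. Members were the genes whose symbols begin with Rpl or Rps and a number, together with Rpsa and the stalk proteins Rplp0, Rplp1 and Rplp2, without named pseudogenes and without the Rps6 kinases. This rule found 94 rows, of which 77 were ribosomal proteins and 17 were paralogs, retrogenes or, in 1 case, a binding protein, Rps19bp1, that the symbol pattern takes along. With a mean value of at least 3, 84 members remained of 55774 rows in the inducible AML12 table, 83 of 56775 in the conventional AML12 table, 82 of 55774 in the liver table labelled NCD and 78 of 55774 in the liver table labelled HFD. Rpl10l, Rpl39l and Rps12l1 were at 0 in every library of all 4 tables. The symbol rule misses Fau and Rack1, which are also parts of the ribosome, and they were read separately.

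The study concerned Falcor, a long noncoding RNA listed as 9030622O22Rik, and the zinc finger protein ZC3H11A. The inducible experiment used AML12 lines with a control hairpin (shCtrl) or one titled shLinc (read as the hairpin against Falcor because the characteristics carry a shfalcor tag), each without doxycycline (No Dox), with doxycycline (DoxPlus) and in a state titled DoxMinus and otherwise labelled restored (3 libraries in each of 6 groups). The conventional experiment used AML12 cells with a control, Falcor or ZC3H11A hairpin (shCtrl, shFalcor, shZC3H11A; 3 libraries each). Livers were from control and Falcor knockout (KO) mice, 4 and 4 on NCD and 5 and 6 on HFD. The doses and times of doxycycline, whether a line is 1 clone, the knockout allele, and the strain, sex and age of the mice are not given in the labels. Nor do the labels say that replicates were separate cultures or mice, so the p-values speak only for the spread among these libraries, which may be technical.

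A ribosome is built from a small and a large subunit, each an assembly of ribosomal RNA and a fixed set of proteins that are made in nearly equal numbers. In mammals the mRNAs of these proteins begin with a C followed by a run of pyrimidines, the terminal oligopyrimidine (TOP) motif, through which mTOR and the RNA-binding protein LARP1 set how many of them are translated. Their genes are transcribed at very high rates in growing cells, many through the transcription factor Myc, and they have left large numbers of processed pseudogenes in the genome, some nearly identical to the parent mRNA.

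Falcor RNA itself followed the labels in part. With doxycycline it was at 2.10, 2.12 and 3.14 in the Falcor hairpin line and at 4.20 to 5.26 in the control line, in scaled values (the deposited values divided by a scale factor per library). Without doxycycline it was instead higher in the Falcor line, at 8.02 to 11.1, than in the control line, at 4.38 to 6.01 (log2 fold change 0.75 ± 0.14 SE, adjusted p = 1.88e-04, limma). In the restored state it was at 8.44 to 10.2 against 4.17 to 5.19. The 2 lines therefore differed in Falcor without doxycycline, in the direction opposite to a knockdown. In the conventional cells Falcor was at 0.549 to 1.14 CPM with its hairpin and 1.98 to 4.40 in the control, and in the livers it was at 0 in every knockout. The AML12 cells held little RNA of hepatocyte markers: of 5 markers read, Apoc3 was at 0 in the inducible table, and the markers summed to 381 to 1348 there against 16280 to 54549 in the livers, on scales that cannot be compared exactly. Markers of endothelium and lymphocytes were at 0 in the inducible table. Control library 1 without doxycycline stood apart from libraries 2 and 3 of its group. The summed scaled value of the members was 156129 in it, against 127806 in the lowest of its group. The main counts of members called that rest on it, and their sum, are also given without it. So are the leading values in the comparison of the lines without doxycycline. Other single values that rest on it are given only with it.

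The start sites of a few members show the sequence that names the TOP class. Each stretch below covers 30 bases of the mouse genome (RefSeq, GRCm38.p6), 5′ to 3′, with the annotated start as base 11; capitals mark the unbroken run of C and T that covers the start. Rps6, Rplp2, Rps27 and Rpl35 are shown because the run begins there or reaches across the start, and Rplp0, Rps13, Rpl22l1 and Rpl7l1 because they moved apart from the other members in the comparisons that follow.
Rps6, chr4:86857348-86857377 (minus strand): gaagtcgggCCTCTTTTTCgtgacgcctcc
Rplp2, chr7:141447641-141447670 (plus strand): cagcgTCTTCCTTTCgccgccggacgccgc
Rps27, chr3:90213629-90213658 (minus strand): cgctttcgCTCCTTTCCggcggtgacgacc
Rpl35, chr2:39005112-39005141 (minus strand): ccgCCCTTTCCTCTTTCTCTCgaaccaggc
Rplp0, chr5:115559457-115559486 (plus strand): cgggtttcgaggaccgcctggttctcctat
Rps13, chr7:116334171-116334200 (minus strand): caaacgtcggTgagtggcgtcacttcctgt
Rpl22l1, chr3:28805498-28805527 (plus strand): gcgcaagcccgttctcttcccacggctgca
Rpl7l1, chr17:46782637-46782666 (minus strand): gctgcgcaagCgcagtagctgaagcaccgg
Of the 94 members, 69 matched a RefSeq promoter entry. A C at the annotated start followed by 4 further pyrimidines, read on the gene's strand, stood at 15 of these 69 starts (21.7%), at 13 of 57 ribosomal proteins (22.8%) and at 2 of 12 paralogs and others (16.7%). The same letters stood at 813 of 27025 starts of all genes (3.01%). A start annotated a few bases away hides the motif, so no match says only that these letters are not at that base. The stretches shown do not test whether the motif goes with a member's change. Rps18, also apart from the other members in the inducible lines, has a run of 11 bases across its start.

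A second set of sequences concerns how a member's row was counted. Rps2, a small-subunit protein near the mRNA entry channel, lies at chr17:24718116-24721929 on the plus strand, and its copy Rps2-ps13 lies at chrX:52898588-52899469, both in GENCODE M21 on GRCm38. The stretches below are coding bases 58 to 87 of Rps2 and the aligned bases of the copy, with the differing bases in capitals.
Rps2: ggTggccgcggcggcttccgcggaggAttc
Rps2-ps13: ggAggccgcggcggcttccgcggaggGttc
The substitutions are T60A and A84G, counted from the first base of the Rps2 coding sequence, and the copies differed at 7 of 882 aligned bases. Reads from such stretches can be given to either row. In the inducible table Rps2 had a mean deposited value of 11.6 and its copies 7526, while in the NCD livers the Rps2 row held 611, the highest of all members there. How the reads were assigned was not tested, so the level of a single such row is uncertain.

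Copies were defined as other annotated genes whose transcripts match a member's coding sequence at 95% identity or more over at least 80% of its length, and 559 were found for 86 members. They held more than 50% of the joint value of member and copies for 21 of 83 members in the inducible table, 14 of 84 in the conventional table, 16 of 83 in NCD and 15 of 83 in HFD. For most members the copies were small: under 5% in 55, 61, 55 and 59 members. Rpl12, at the base of the stalk, had a mean of 24.7 in the inducible table beside 2802 in copies, and Rpl5, which carries the 5S ribosomal RNA with Rpl11, had 28.8 beside 1554. Rpl3, near the peptidyl transferase centre, had 105 beside 1816, and Rpl29, on the surface of the large subunit, had 30.4 beside 1334. The split was not the same in cells and liver: 12 members were mostly in copies in both the inducible and the NCD table, 9 in the inducible table only (such as Rps2, Rpl3, Rpl29 and Rps18) and 4 in NCD only (Rps6, Rps12, Rpl10a and Rpl36a). Rps6 had 122 in its own NCD row and 395 in copies. Across 86 members, Spearman's rho between the inducible and NCD levels was 0.48 from the members' own rows and 0.61 with the copies added, and between NCD and HFD it was 0.93 from own rows. These are descriptions across genes that share reads and libraries. Each comparison was therefore also fitted with the copies' rows added to each member.

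**Figure D1:**
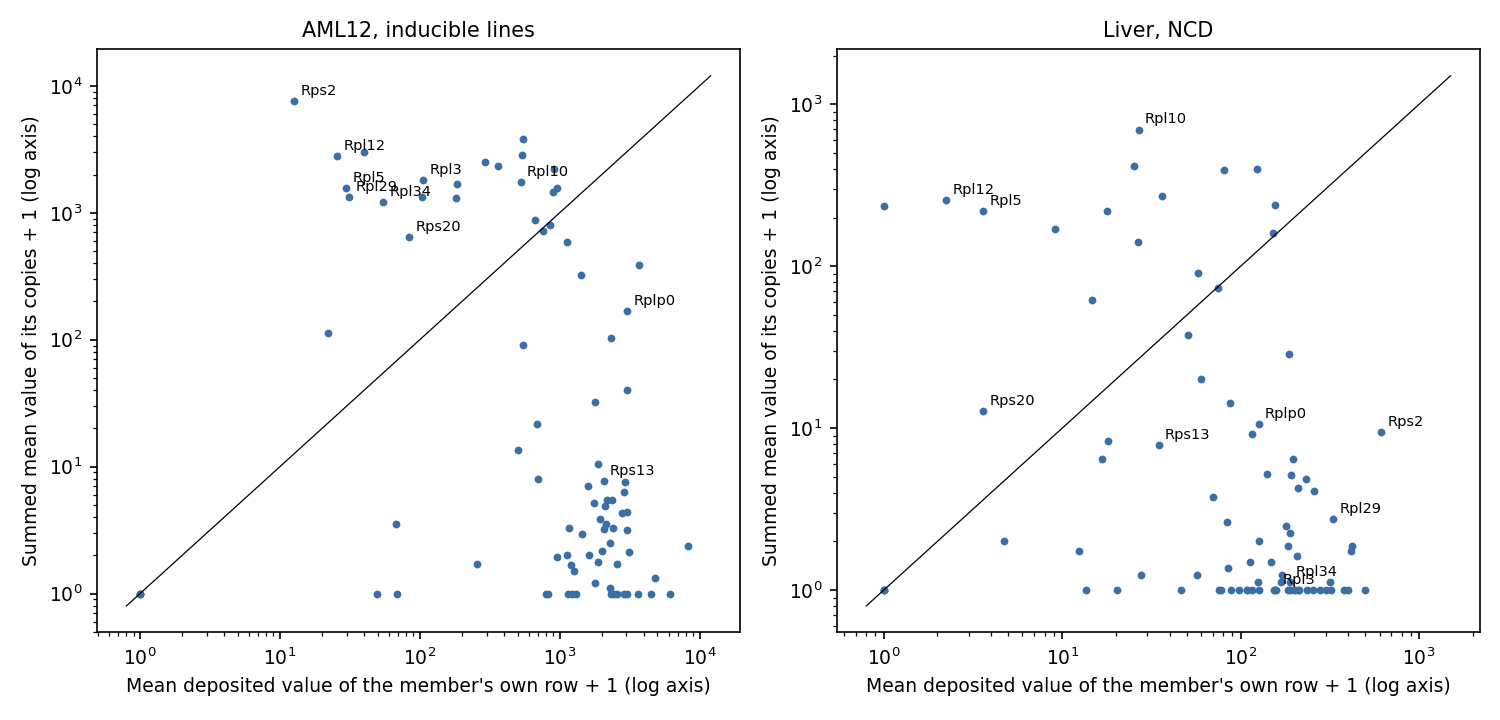
Mean deposited value plus 1 of each member's own row (x axis, log scale) and summed mean plus 1 of its near-identical copies (y axis, log scale) in the inducible AML12 table (left) and in NCD liver (right), 1 point per member, with the line of equal values. Members above the line have more in copies than in their own row, such as Rps2 in the inducible table (11.6 against 7526).

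By their own rows, the most abundant members of the inducible table were Rplp1 (mean deposited value 8226), Rpl41 (6164), Rps14 (4828) and Rps15 (4516). In liver the order was led by Rps2 (611) and Rpl41 (499) on NCD and by Rpl41 (208), Rps24 (149) and Rps2 (142) on HFD. These tables look length-scaled: across 8967 genes, the ratio of the conventional counts to the inducible values rose with transcript length at a slope of 1.28 on log2 scales (r = 0.72). Members made up 12.8 to 17.9% of each inducible column, 3.81 to 5.41% of the conventional counts, 1.10 to 1.66% of the NCD columns and 0.183 to 0.654% of the HFD columns. In the livers 3 rows with identical values held 3.43 to 12.9% of a column on NCD and 22.4 to 78.2% on HFD, which sets part of the members' share. Less RNA per cell and fewer cells of a type cannot be told apart in any of these bulk libraries.

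Without doxycycline, ribosomal protein mRNAs were lower in the Falcor line than in the control line across both subunits. Of 84 members, 78 were called lower (adjusted p below 0.05 over all genes, limma on log2 of the scaled value plus 1) and 0 higher, at a median log2 fold change of -0.41, or a fold of 0.755. Of all genes tested in this comparison, 35.1% were called lower and 30.2% higher, with a median of -0.01. At an unadjusted p under 0.05 the members' counts were 79 lower and 0 higher, against 36.5% and 31.9% of all genes, and with the copies added 83 of 84 were called lower. Without rescaling the members' median was -0.22, beside 0.16 for all genes. Leaving out any 1 library, control library 1 included, gave 77 to 80 lower, and without control library 1 the median was -0.31. In 79 members the 3 Falcor libraries all lay below the 3 control libraries, as they did in 34.8% of all genes. By part of the ribosome, 39 of 43 large-subunit proteins, 30 of 31 small-subunit proteins, all 3 stalk proteins, 5 of 6 paralogs and Rps19bp1 were called lower. Fau (log2 fold change -0.33) and Rack1 (-0.30), outside the symbol rule, were called lower as well.

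Among the members, Rps6, the small-subunit protein phosphorylated by S6 kinases, had scaled values of 1423, 1285 and 1242 in the control line and 1063, 1029 and 1077 in the Falcor line (log2 fold change -0.31 ± 0.04 SE, adjusted p = 4.79e-06). Rpsa, also known as the laminin receptor, was at 1774, 1465 and 1463 against 1113, 1116 and 1164 (-0.46 ± 0.06, adjusted p = 1.60e-06). Rplp1, which with Rplp0 and Rplp2 forms the stalk that binds elongation factors, was at 10192, 8001 and 8109 against 5866, 5774 and 6129 (-0.56 ± 0.06, adjusted p = 8.99e-07). For these 3 members every Falcor library was below every control library, and control library 1 was the highest of the 6. The largest decreases were those of Rps19bp1, a nucleolar binding partner of Rps19 (-0.82 ± 0.06), Rpl12 (-0.76 ± 0.11) and Rps27l, the paralog of Rps27 (-0.70 ± 0.06). Rps19bp1 was at 82.2, 71.1 and 64.5 in the control line and at 40.7, 41.0 and 39.8 in the Falcor line, with no overlap. Without control library 1, the log2 fold change was -0.26 ± 0.03 for Rps6, -0.38 ± 0.03 for Rpsa, -0.45 ± 0.02 for Rplp1, -0.73 ± 0.05 for Rps19bp1, -0.66 ± 0.11 for Rpl12 and -0.60 ± 0.03 for Rps27l, each still called lower.
At the other end, Rpl4, a protein of the exit tunnel, fell by 0.15 ± 0.03. The 6 members not called were Rpl5 (-0.07 ± 0.09, adjusted p = 0.515), Rpl10 (-0.08 ± 0.09), Rpl10a (-0.17 ± 0.07), Rpl30 (-0.21 ± 0.10), Rps27rt (-0.33 ± 0.32) and Rps18 (-0.34 ± 0.19). All 6 belonged to the 28 members whose copies hold at least 5% of the joint value, of which 22 were called lower; of the 55 members with fewer copies, 55 were called lower. With its copies added, Rpl5 was lower too (-0.21 ± 0.04, adjusted p = 3.11e-04).

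With doxycycline nearly the whole set was higher in the Falcor line. There 81 of 84 members were called higher than without doxycycline and 0 lower, at a median log2 fold change of 0.68, a fold of 1.60. Of all genes 38.6% were called higher and 35.6% lower. Unadjusted counts at p under 0.05 were the same, 81 and 0, against 39.3% and 36.4% of all genes. Rps6 went from 1063, 1029 and 1077 to 1733, 1735 and 1755 (fold 1.65, log2 0.72 ± 0.04, adjusted p = 5.39e-11). Rps13, a small-subunit protein, went from 1403, 1426 and 1429 to 2761, 2723 and 2737 (0.95). Rpl11, the partner of Rpl5, went from 374, 400 and 396 to 730, 722 and 725 (0.90). The 2 groups were far apart in each of these, with little spread within groups. By their own rows, Rps19bp1 (fold 2.15), Rpl29 (2.10) and Rps2 (2.01) were the 3 members called at 2-fold or more. With copies added, Rpl29 (log2 0.81 ± 0.06) and Rps2 (0.71 ± 0.05) stayed below 2-fold. Of the stalk, Rplp0 rose by 0.54, Rplp1 by 0.75 and Rplp2 by 0.77 on the log2 scale. The 3 members not called were Rpl5 (-0.07 ± 0.09, adjusted p = 0.502), Rps18 (0.14 ± 0.19) and Rps27rt (-0.35 ± 0.32). With copies added Rpl5 was called higher (0.43 ± 0.04), and 83 of 84 members were.

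The control line changed less under the same doxycycline. There 43 of 84 members were called higher and 1 lower, at a median of 0.13, beside 34.0% higher and 32.5% lower of all genes. This count rests in part on control library 1 without doxycycline: without it 73 members were called higher, at a median of 0.23. Rps6 went from 1423, 1285 and 1242 to 1705, 1623 and 1648 (0.34 ± 0.04), all above the untreated libraries. Rpl4 (0.49 ± 0.03, adjusted p = 3.84e-10), Rpl36al (0.46 ± 0.06), the paralog of Rpl36a, and Rpl21 (0.43 ± 0.05) rose most. Rpl7l1, named for its likeness to Rpl7, was the 1 member called lower (-0.17 ± 0.04, adjusted p = 2.19e-03).
The difference between the lines' responses was tested directly. It was positive and called in 74 of 84 members and negative in 1, with a median of 0.52. Of all genes, 33.9% were called higher and 31.0% lower. Without control library 1, 74 members were called positive and 2 negative, at a median of 0.43. The single values that follow include that library. Rpl7l1 had the largest value (1.15 ± 0.06, adjusted p = 8.32e-11), because it fell in the control line and rose in the Falcor line. Rps19bp1 (1.00) and Rps2 (0.99 ± 0.17) followed by their own rows. With copies added, Rps2 changed by 0.71 ± 0.05 in the Falcor line and 0.12 ± 0.05 in the control line. Rpl5 was the 1 member with a called negative difference (-0.36 ± 0.12, adjusted p = 0.0152), and with its copies added that difference was 0.10.

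With doxycycline present, the 2 lines were close. The Falcor line had 37 members called higher and 4 lower of 84, with a median log2 fold change of 0.12, beside 25.4% higher and 27.0% lower of all genes. Rps6 was at 1705, 1623 and 1648 in the control line and 1733, 1735 and 1755 in the Falcor line (0.07 ± 0.04, adjusted p = 0.170), and Rplp0 was at 3396, 3327 and 3307 against 3423, 3410 and 3426 (0.03 ± 0.04, adjusted p = 0.527). The groups did not overlap in either gene, and neither difference was called. Rpl7l1 was higher in the Falcor line, at 65.2, 64.6 and 65.9 against 46.3, 46.2 and 45.0 (0.50 ± 0.04, adjusted p = 7.05e-08), as were Rpl29 (0.40 ± 0.06) and Rps2 (0.35 ± 0.12). With copies added the Rps2 difference was 0.02 ± 0.05 and Rpl29's 0.16 ± 0.06. Rpl5 (-0.43 ± 0.09, adjusted p = 5.17e-04), Rpl4 (-0.20 ± 0.03, adjusted p = 4.46e-05) and Rpl23a (-0.15 ± 0.05) were lower. Falcor RNA itself was lower in this comparison (-0.78 ± 0.14, adjusted p = 2.18e-04), from the low values given above. Its part in the members' values was not tested.

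In the restored state the members of the Falcor line were again below those of the control line. Here 68 of 84 were called lower and 1 higher, at a median of -0.34, beside 32.1% lower and 25.7% higher of all genes. Without rescaling the libraries, the split was 50 lower and 8 higher. Rps6 was at 1584, 1507 and 1510 in the control line and 1237, 1231 and 1260 in the Falcor line (-0.30 ± 0.04), with no overlap, and Rpsa was at 1956, 1961 and 1942 against 1314, 1431 and 1383. Rpl12 (-0.73), Rps27l (-0.64) and Rps19bp1 (-0.64) had the lowest values. Rpl5 was the 1 member called higher (0.22 ± 0.09, adjusted p = 0.0347), and with copies added its value was -0.10.
Within the Falcor line, going from doxycycline to the restored state lowered 80 of 84 members and raised 1, at a median of -0.52 (fold 0.695), beside 38.0% lower and 34.2% higher of all genes. Rplp1 went from 9754, 10175 and 9898 to 6564, 6803 and 6655, and Rps13 from 2761, 2723 and 2737 to 1678, 1690 and 1629. Both groups of restored values were well below those with doxycycline. By their own rows Rpl29 (-1.05), Rps2 (-0.87) and Rpl22l1 (-0.83) fell most, and Rpl5 was the 1 called higher (0.20 ± 0.09, adjusted p = 0.0426). With copies added Rpl29 was at -0.63, Rps2 at -0.61 and Rpl5 at -0.36. The restored Falcor libraries remained a little above the line's untreated ones: 43 members were called higher and 3 lower, at a median of 0.14, beside 28.5% higher and 23.8% lower of all genes. Rpl18 (0.41), Rpl34 (0.39) and Rpl7l1 (0.37) led the higher members, and Rpl7 (-0.18), Rpl4 (-0.15) and Rpl21 (-0.12) were the lower ones. With copies added Rpl34 was at 0.17 ± 0.06, and Rpl21 was at -0.08 ± 0.06 and not called.

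The control line split in 2 directions over the same steps. From doxycycline to the restored state, 16 members were called higher and 31 lower, at a median of -0.06, beside 39.6% higher and 34.2% lower of all genes. Rpl36al (-0.78 ± 0.06), Rpl4 (-0.73 ± 0.03) and Rpl21 (-0.63 ± 0.05), the 3 that rose most with doxycycline in this line, fell most. Rpl4 was at 1693, 1674 and 1685 with doxycycline and 1034, 1023 and 997 in the restored state, below its untreated values of 1251, 1174 and 1171. Rps27rt (0.84 ± 0.32), Rpl7l1 (0.33) and Rpl18 (0.33) rose. Against the untreated control line, the restored one had 33 members called higher and 12 lower, at a median of 0.08, beside 27.1% higher and 22.8% lower of all genes. Rps3 (0.44), Rpl18 (0.43) and Rps10 (0.36) led the higher members and Rpl22l1 (-0.56), Rpl7 (-0.36) and Rpl36al (-0.32) the lower ones. Without control library 1 of the untreated group 50 were called higher, at a median of 0.18. The lower count was 20 without untreated library 3 and 7 without restored library 3. The response to doxycycline against the restored state differed between the lines in 65 members called positive and 2 negative, at a median of 0.45, beside 31.7% and 28.8% of all genes. Rpl7l1 (0.94), Rps19bp1 (0.82) and Rpl27 (0.82) had the largest differences, and Rpl5 (-0.65) and Rpl4 (-0.13) were the 2 negative ones.

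**Figure D2:**
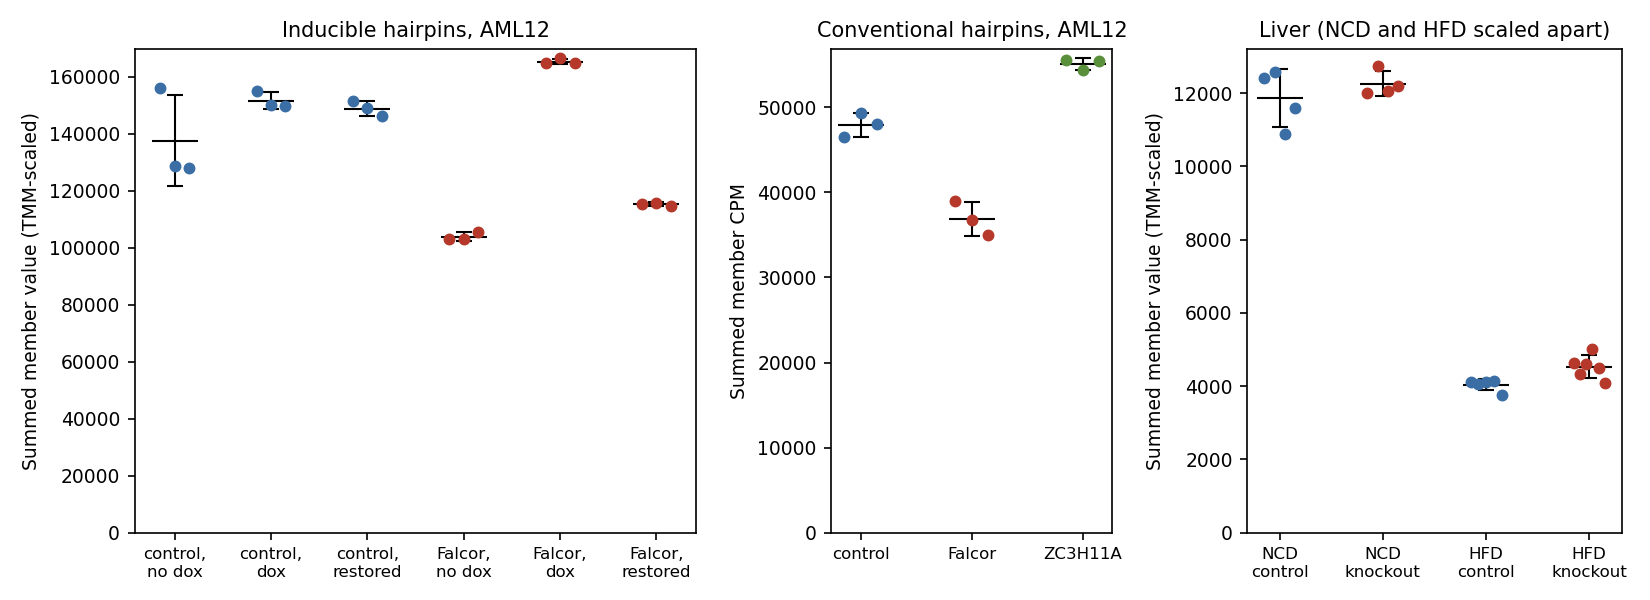
Summed value of the members in each library (1 point per library, marks at the group mean, error bars 1 SD) of the inducible lines (left, scaled values), the conventional hairpins (middle, CPM) and the livers (right, scaled values, each diet on its own scale). The untreated Falcor line lies lowest of the inducible groups, at 102946 to 105669, and control library 1 without doxycycline stands apart at 156129.

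In sum over all members, the scaled values were 137592 ± 16062 (SD, n = 3) in the untreated control line, where libraries 2 and 3 alone were at 127806 and 128841, and 103854 ± 1572 in the untreated Falcor line. With doxycycline they were 151655 ± 2819 and 165304 ± 980, and in the restored state 148777 ± 2624 and 115346 ± 529. The Falcor line thus moved over a wider range than the control line. Its sums did not overlap between any of its 3 states.

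The paralogs did not all change as the genes they are named for did. Rpl22 was at 890, 796 and 759 in the untreated control line and 636, 679 and 671 in the Falcor line (-0.30 ± 0.05). Its paralog Rpl22l1 was at 382, 318 and 266 against 212, 206 and 192 (-0.65 ± 0.08), so both were lower, with no overlap. Rps27l was at 1117, 907 and 881 against 594, 583 and 596 without doxycycline. With doxycycline, at 992, 977 and 950 against 955, 984 and 989, its groups overlapped. Rpl7l1 was at 55.9, 50.1 and 49.4 against 32.4, 33.9 and 31.6 without doxycycline and thus changed sides between the lines. In the control line with doxycycline, with copies added, Rpl7 rose by 0.15 ± 0.05 on the log2 scale and Rpl7l1 fell by 0.17 ± 0.04. Rps27 rose there by 0.29 ± 0.06, beside 0.02 ± 0.06 for Rps27l. In the Falcor line each rose, Rpl7 and Rpl7l1 by 0.40 and 0.99 and Rps27 and Rps27l by 0.56 and 0.73.

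Genes that work with the ribosome were read from lists of known factors. Of 28 factors of ribosome assembly and ribosomal RNA synthesis, 28 were called lower in the untreated Falcor line (median -0.77) and 28 higher with doxycycline in that line (median 1.60), against 26 higher and 1 lower in the control line (median 0.41). Fbl, the methyltransferase of box C/D particles, rose by 1.49 in the Falcor line and Nop58, a core protein of the same particles, by 1.64. Their medians were larger than the members' (0.68). Of 22 translation factors and other mRNAs with a TOP motif, 12 were called lower and 6 higher in the untreated Falcor line (median -0.13), and 19 higher and 1 lower with doxycycline (median 0.42); the nucleolar chaperone Npm1, in this list, rose by 1.46. In the untreated comparison 35.1% of all genes were called lower and 30.2% higher. With doxycycline in the Falcor line the shares were 38.6% higher and 35.6% lower. Of 12 genes that control the supply of ribosomal proteins, 4 were lower and 3 higher in the untreated comparison, near the shares of all genes. Among these Myc was at 102, 91.2 and 94.8 in the untreated control line and 75.9, 77.5 and 71.4 in the Falcor line, and with doxycycline at 105, 104 and 105 against 126, 126 and 128.
Markers of proliferation moved with the members in sum, though not each of them. In scaled values they summed to 503 to 549 in the untreated control line and 301 to 307 in the Falcor line, to 792 to 801 and 807 to 816 with doxycycline, and to 612 to 613 and 411 to 419 in the restored state. Mcm2, Mcm3, Mcm5 and Pcna were called lower in the untreated Falcor line, at -1.05, -1.08, -1.02 and -0.82, while Mki67 (0.21) and Top2a (0.23) were not called. The sum of the hepatocyte markers moved the other way in the Falcor line. It was 1097 to 1149 untreated, 381 to 391 with doxycycline and 1310 to 1348 restored. In the control line it was 465 to 525, 652 to 672 and 577 to 592. A sum can rest on a single abundant gene, and the profiles of single markers, given below, differed. The part of cell growth and of cell state in the members' values was not tested.

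Over the 18 inducible libraries, most members shared 1 profile. Each was standardized, and the mean of these profiles was compared with each gene by Pearson's r, as a description over libraries that share 6 groups. The median r was 0.92 for the 84 members, with 52 above 0.9 and 71 above 0.8. Rpl17 (0.994), Rpl6 (0.994), Rpl14 (0.993), Rpl38 (0.992) and Rps15a (0.992) were nearest to the mean, to which each member contributes, and Rps27rt (-0.15), Rpl5 (0.12) and Rps18 (0.39) were farthest. Of 9793 other genes the median r was 0.03 and 510 were above 0.9. Some other lists followed the same profile nearly as closely by their medians. The median r was 0.91 for 6 proliferation markers (range 0.36 to 0.94) and 0.89 for 28 ribosome assembly factors (range 0.27 to 0.97). It was lower, at 0.65, for 22 translation factors and other TOP mRNAs, which ranged from -0.85 to 0.97. For 12 genes that control the supply of ribosomal proteins it was 0.22. For the 3 hepatocyte markers tested it was -0.15, with a range of -0.85 to 0.19. The 5 non-members nearest to the profile were Rps23-ps1 (0.995) and Gm10275 (0.987), both copies of members, and Eif1 (0.986), Eif5a (0.984) and Npm3 (0.983).

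Length was a property that the members shared beyond the symbol rule. Their transcripts had a median length of 793.5 nucleotides, with 67 of 94 at most 1000, against 2722 for all tested genes with a length, of which 1016 of 9722 were at most 1000. In the untreated comparison short transcripts fell as a class: Spearman's rho between log2 fold change and length was 0.39 across genes, and non-member genes of at most 1000 nucleotides had a median of -0.28, against -0.41 for the members. Non-members of 400 to 600 nucleotides had a median of -0.29 and those over 6000 nucleotides 0.35. In the Falcor line with doxycycline the short non-members had a median of 0.17, far from the members' 0.68, and in the control line with doxycycline -0.12, opposite in sign to the members' 0.13. In the restored comparison of the lines they were at -0.18 (rho 0.29), beside -0.34 for members. For the difference between the lines' responses to doxycycline, short non-members were at 0.30 (rho -0.34), beside 0.52 for members. With the restored state as the reference, they were at 0.19 (rho -0.27), beside 0.45 for members. Genes are not independent replicates, so these values describe the libraries.
With the trend over length removed from the fold changes, 61 members were called lower and 2 higher in the untreated comparison, at a median of -0.17, and 81 higher and 0 lower in the Falcor line with doxycycline, at a median of 0.54. The difference between the lines' responses to doxycycline shrank, from a members' median of 0.52 to 0.30. With the restored state as the reference it went from 0.45 to 0.29. The control line's response to doxycycline became broader, with 74 members called higher. Its restored-against-doxycycline step became mostly lower, with 48 lower and 13 higher.

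**Figure D3:**
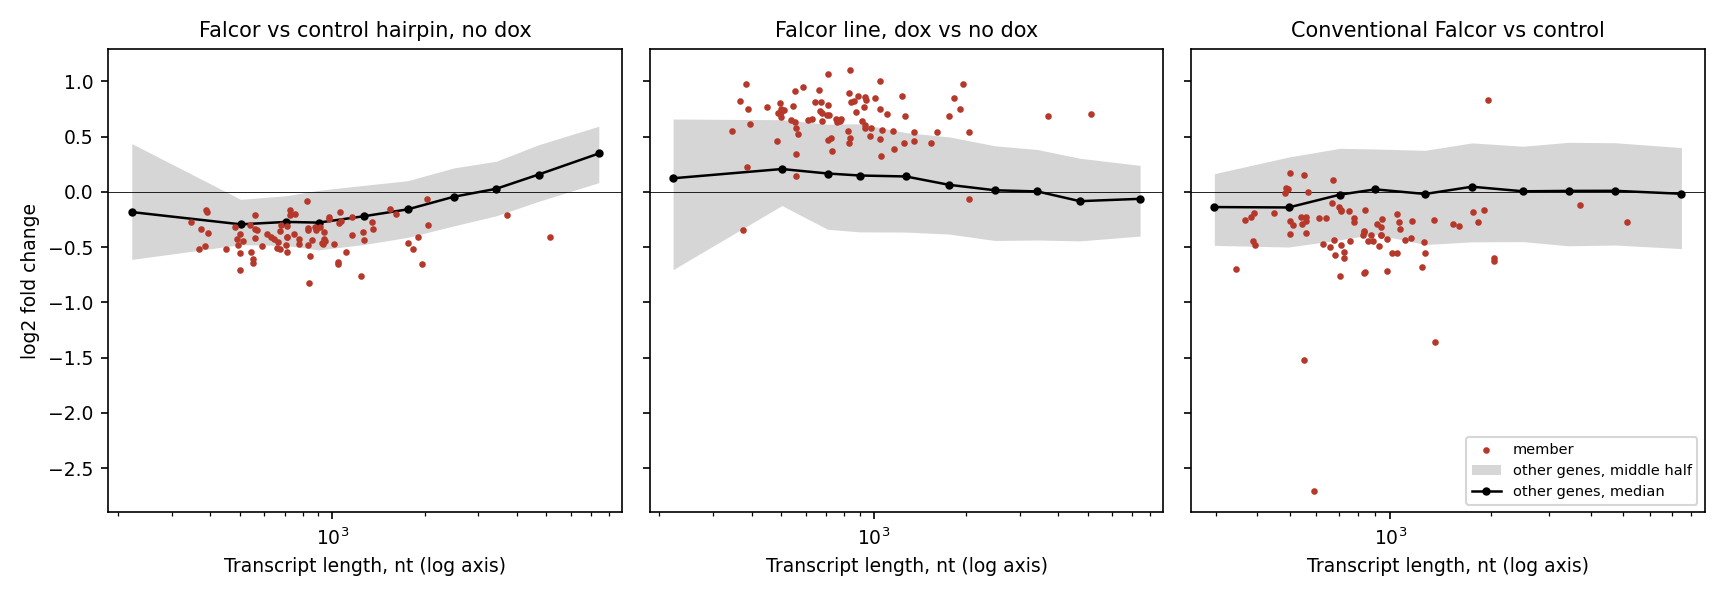
Log2 fold change against transcript length in nucleotides (log axis) for each member (points) and for other genes by length bin (line at the median, band over the middle quartiles) in the untreated comparison of the inducible lines, the Falcor line with against without doxycycline, and the conventional Falcor hairpin against control. The other genes of 400 to 600 nucleotides had a median of -0.29 in the first panel, where the line climbs with length, and lay well below the members in the second.

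**Figure D4:**
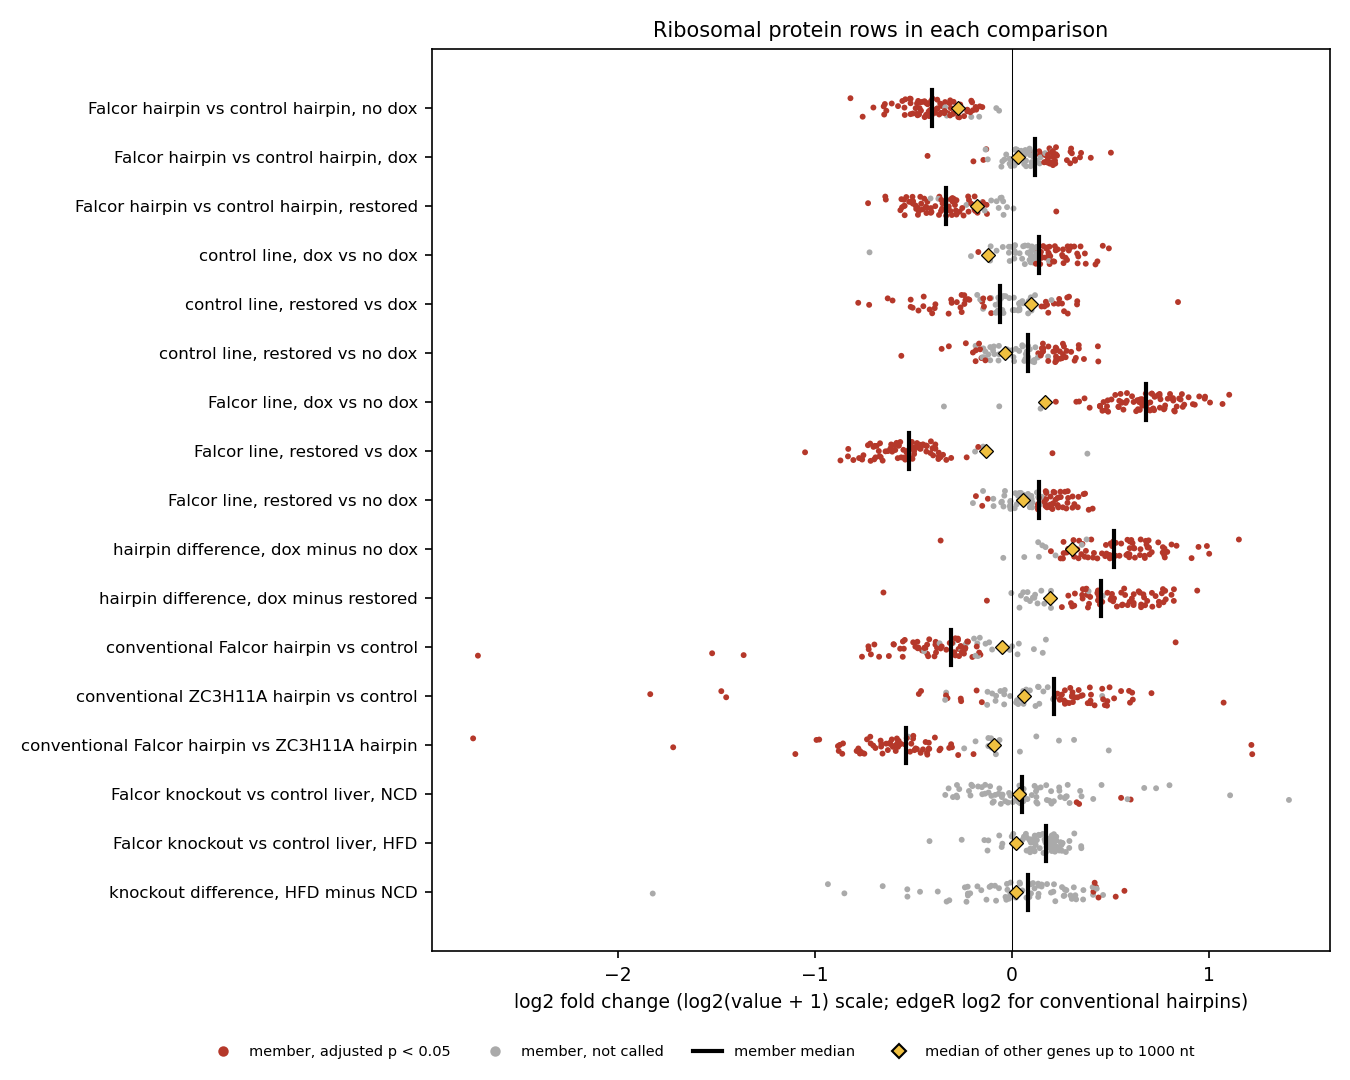
Log2 fold change of every tested member (1 point each, coloured where called) in each comparison of the 4 tables, with the member median (line) and the median of other genes of at most 1000 nucleotides (diamond). The members lie below 0 in the untreated comparison of the lines (median -0.41) and almost entirely above it in the Falcor line with doxycycline (median 0.68).

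The plot of the members' changes in every comparison shows that the set's median change was furthest from 0 in the Falcor line with doxycycline, and that single members leave the set mainly in the conventional knockdowns.

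In the conventional cells the Falcor hairpin lowered most members and a few of them severalfold. Against the control hairpin, 61 of 82 tested members were called lower and 1 higher (edgeR's quasi-likelihood test on counts), at a median log2 fold change of -0.31. Without rescaling 41 were lower and 3 higher, at a median of -0.16 beside 0.14 for all genes. Of all genes 26.0% were called lower and 25.5% higher, and short non-members had a median of -0.05 with a rho of 0.01 over length. By part, 34 of 43 large-subunit proteins, 22 of 30 small-subunit proteins, 2 of 3 stalk proteins and 2 of 5 paralogs were called lower. With copies added 68 of 83 were lower and 1 higher.
Rps13, at chr7:116331505-116334195 on the minus strand, was at 63.5, 56.5 and 46.6 CPM (counts relative to library size) with the Falcor hairpin and 346, 378 and 357 in the control. That is a fold of 0.153 (log2 -2.71 ± 0.09, adjusted p = 2.30e-13), with the groups far apart. Rplp0, at chr5:115559467-115563727 on the plus strand, was at 977, 971 and 968 against 2513, 2545 and 2442 (fold 0.389, -1.36 ± 0.05, adjusted p = 7.05e-13). Rpl22l1, at chr3:28805436-28807424, was at 13.0, 12.8 and 9.34 against 31.0, 37.9 and 30.8 (-1.52 ± 0.17, adjusted p = 7.02e-07). These 3 were the members lowered by more than 2-fold, and their few copies left the values nearly as they were (-2.71 for Rps13 and -1.37 for Rplp0 with copies added).
Of the members called, 19 changed by at least 0.5 on the log2 scale, these 3 included. The share of all genes at that size was not counted. Rpl9 fell by 0.76 and Rps3a1 by 0.72. Rps6 was at 843, 803 and 840 against 1069, 1095 and 1104 (-0.39 ± 0.05) and Rpsa at 1349, 1294 and 1452 against 1573, 1476 and 1589 (-0.18), both without overlap. Rpl11 fell by 0.73. Rpl22 fell by 0.60, so that it and its paralog were both lower. Rpl7l1, at chr17:46773907-46782672 on the minus strand, was the 1 member called higher, at 37.3, 35.5 and 33.8 against 18.9, 18.7 and 22.5 (0.83 ± 0.13, adjusted p = 3.54e-05).

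The ZC3H11A hairpin gave a different pattern against the same control libraries. It had 40 of 82 members called higher and 11 lower, at a median of 0.21, beside 24.2% higher and 24.3% lower of all genes. Short non-members had a median of 0.06. Of the small subunit 16 of 30 were higher and 3 lower, of the large subunit 19 of 43 and 6, and all 3 stalk proteins were higher. Rpsa was at 2269, 2234 and 2495 CPM against 1573, 1476 and 1589 (0.59 ± 0.06), Rplp0 at 3231, 3111 and 3266 against 2513, 2545 and 2442 (0.36 ± 0.05), and Rpl13 at 1524, 1471 and 1543 against 955, 1048 and 968 (0.61 ± 0.06). Each of these groups lay wholly above the control. Rpl7l1 (1.07 ± 0.13, adjusted p = 2.02e-06) and Rpl29 (0.71 ± 0.22) rose most by fold.
Against this rise, some members fell to well under the control. Rpl3, at chr15:80077791-80091868 on the minus strand, was at 14.5, 13.2 and 12.2 CPM against 38.7, 28.7 and 43.8 (-1.48 ± 0.16, adjusted p = 5.24e-07). Rpl22l1 was at 9.19, 10.8 and 7.99 against 31.0, 37.9 and 30.8 (-1.84 ± 0.18, adjusted p = 1.23e-07). In neither did the groups overlap. Most of the Rpl3 signal was in copies, and with these added its change was -0.56 ± 0.06 (adjusted p = 1.86e-07). The mean deposited counts, 10551 in the control and 6095 with the hairpin, are not adjusted for library size and so differ by more.
Rps13, low with the Falcor hairpin, was at 363, 362 and 375 with the ZC3H11A hairpin (0.02 ± 0.08, adjusted p = 0.824), overlapping the control.

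The 2 knockdowns were then compared with each other, since each was read against the same control libraries. Of 82 members 65 were called lower with the Falcor hairpin than with the ZC3H11A hairpin and 2 higher, at a median of -0.54, beside 28.6% lower and 28.4% higher of all genes. Rps13 (-2.73 ± 0.09), Rplp0 (-1.72 ± 0.05) and Rps3a1 (-1.10 ± 0.06) had the largest negative values, and Rpl3 (1.22 ± 0.16) was among the higher. Summed over the members, CPM was 36872 ± 1995 with the Falcor hairpin, 55087 ± 670 with the ZC3H11A hairpin and 47929 ± 1412 in the control (SD, n = 3).

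**Figure D5:**
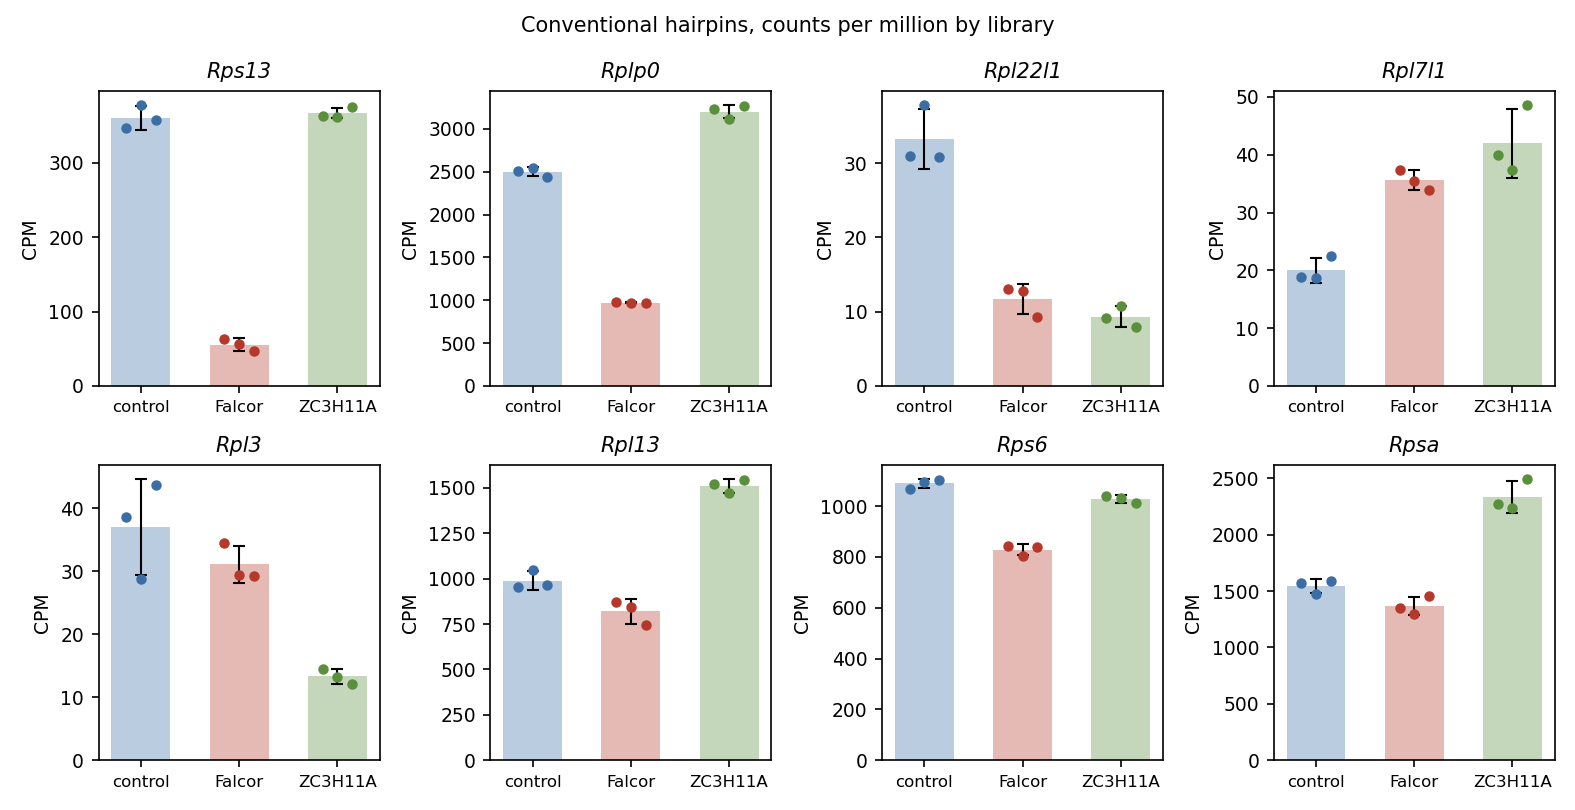
CPM in the conventional libraries (1 point per library, bars at the mean of 3, error bars 1 SD, axes from 0) for 8 members. Rps13 and Rplp0 are low with the Falcor hairpin, Rpl3 with the ZC3H11A hairpin, Rpl22l1 with both, and Rpl7l1 is high with both, while Rps6, Rpsa and Rpl13 differ less.

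The conventional cells also differed in other ways beside these values. Ribosome assembly factors did not follow the members: with the Falcor hairpin 10 of 28 were called higher and 2 lower (median 0.30), and with the ZC3H11A hairpin 9 and 5 (median 0.09). Of all genes 25.5% were called higher and 26.0% lower with the Falcor hairpin, and 24.2% and 24.3% with the ZC3H11A hairpin. Fau was called lower with the Falcor hairpin (-0.55 ± 0.06) and higher with the ZC3H11A hairpin (0.27 ± 0.06), and Rack1 was at -0.13 ± 0.05 (adjusted p = 0.0539) and called higher (0.43 ± 0.05). Hepatocyte markers summed to 13.0 to 19.3 CPM with the Falcor hairpin, 236 to 412 with the ZC3H11A hairpin and 210 to 257 in the control. With the ZC3H11A hairpin single markers went opposite ways. In deposited counts, Alb was at 146, 99 and 153 against 456, 331 and 364 in the control. Ttr was at 291, 217 and 294 against 1006, 690 and 936. Serpina1a was at 1062, 674 and 1447 against 300, 267 and 229, and Apoa1 at 195, 176 and 372 against 49, 37 and 36. Of the macrophage markers Cd68 was higher with the Falcor hairpin (3.65 ± 0.20), while Clec4f, Adgre1 and Vsig4 were at 0, and the list summed to 47.9 to 50.6 against 3.44 to 5.21. Proliferation markers summed to 61.1 to 66.8, 107 to 168 and 75.8 to 93.1 in the same order. Their part in the members' values was not tested. The ZC3H11A hairpin also lowered Falcor (-2.17 ± 0.52). Falcor counts were 4, 3 and 6 with it, as low as the 7, 4 and 5 with the Falcor hairpin, against 38, 11 and 24 in the control. The Falcor hairpin lowered Zc3h11a (-0.75 ± 0.24), which its own hairpin lowered by 3.03 ± 0.29.

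In the NCD livers few ribosomal proteins were called with the knockout of Falcor. There 4 of 82 members were called higher and 0 lower (limma), at a median of 0.05, beside 4.16% higher and 1.81% lower of all genes; at an unadjusted p under 0.05 the counts were 16 and 9, against 18.8% and 11.1% of all genes. The 4 were Rps27 and the large-subunit proteins Rpl37, Rpl21 and Rpl23. Rpl23 was at scaled values of 40.5, 38.8, 41.0 and 39.1 in the controls and 49.8, 52.0, 46.9 and 52.3 in the knockouts (0.33 ± 0.07, adjusted p = 0.0379). Rpl21 was at 51.2, 49.2, 50.1 and 47.3 against 58.8, 61.8, 61.7 and 69.4 (0.34 ± 0.07, adjusted p = 0.0415). Rpl37 was at 11.7, 15.7, 12.5 and 12.3 against 17.9, 18.6, 19.1 and 26.1 (0.60 ± 0.14, adjusted p = 0.0440). In each the 4 knockouts lay above the 4 controls.
Rps27 was at 216, 216, 154 and 163 against 273, 248, 275 and 294 (0.55 ± 0.13, adjusted p = 0.0457). All 4 calls were near the threshold and depended on single livers: without control 4 there were 14 higher and 4 lower, while without any 1 of control 3, Ctrl-2, Ctrl-3, KO 1, KO 2 or KO 4 there were 0 higher, and without KO 3 there was 1. With the copies added 3 were called higher, and Rpl21 was then at 0.23 ± 0.09 (adjusted p = 0.122).
Single livers set the value of Rplp0. Its row was at 5.33, 253, 2.28 and 119 in the controls and 3.99, 242, 228 and 111 in the knockouts (1.40 ± 1.76, adjusted p = 0.622). Each group thus held livers near 0 and livers above 100, and the rows of its copies held too little to make up for it. Rps26, by contrast, was at 60.7, 93.3, 44.4 and 27.8 against 117, 90.3, 111 and 134 (1.11 ± 0.33, adjusted p = 0.0756), with an overlap of 1 liver on each side. Hepatocyte markers summed to 35894 to 46013 in the controls and 40870 to 54549 in the knockouts, and red cell markers to 1875 to 3045 and 1773 to 4892. The libraries of the genotypes also differed in composition: Rn7s rows held 25.02 to 38.2% of a column in controls and 20.3 to 23.8% in knockouts, and mitochondrial genes 1.56 to 2.01% and 2.53 to 4.72%. The part of this in the members' values was not tested.

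On HFD 0 of 78 members were called in either direction, at a median of 0.17, beside 0.0324% higher and 0.0162% lower of all genes. At an unadjusted p under 0.05, limma gave 33 higher and 0 lower, against 7.08% and 5.23% of all genes. The estimate was positive for 69 of 78 members and for 54.4% of all genes. Rps6 was at 48.0, 43.3, 50.6, 42.6 and 39.7 in the controls and 52.0, 50.7, 54.0, 54.0, 51.0 and 50.2 in the knockouts (0.21 ± 0.07, adjusted p = 0.242), which overlap at 1 control. Rps3, at the mRNA entry channel, was at 29.3, 28.8, 27.5, 28.7 and 23.8 against 30.4, 32.3, 31.9, 34.7, 33.2 and 31.9 (0.22 ± 0.07, adjusted p = 0.217), without overlap. KO 6, the last knockout listed for both genes, had 3 identical rows at 78.2% of its column and a scale factor of 0.438. Its values were thus scaled up from small whole numbers, such as 14 for Rps3. Rplp0 was again uneven, at 37.7 to 85.8 in the controls and 2.28 to 109 in the knockouts. Hepatocyte markers summed to 16950 to 22677 and 16280 to 22263. Markers of stellate cells and fibroblasts were lower in the knockouts without overlap, summing to 29.5 to 47.8 in controls and 18.3 to 28.1, and their part in the members' values was not tested.

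The change with the knockout was compared between the diets as the difference of the 2 estimates, since the tables were made separately. It was positive and called in 6 of 78 members and negative in 0, at a median of 0.08, beside 2.51% higher and 4.62% lower of all genes; at an unadjusted p under 0.05 the counts were 19 and 6, against 11.7% and 17.5% of all genes. Without rescaling the members' median was -0.19, beside -0.28 for all genes, and 0 members were called. The stellate and fibroblast markers Dcn (-0.83 ± 0.17) and Reln (-0.65 ± 0.18) had a called negative difference. The 6 members included Rps3 (0.53 ± 0.12, adjusted p = 0.0218), Rplp1 (0.44 ± 0.12, 0.0357), Rpl37a (0.43 ± 0.10, 0.0243), Rplp2 (0.42 ± 0.12, 0.0385) and Rpl38 (0.41 ± 0.12, 0.0414). Rps3, whose HFD values are given with that diet, was at 128, 103, 114 and 133 in NCD controls and 93.7, 103, 96.4 and 91.9 in NCD knockouts. Its estimate was negative on NCD (-0.30 ± 0.09, with 1 knockout above the lowest control) and positive on HFD (0.22 ± 0.07), and neither was called on its own. Rplp1 was at 293, 306, 265 and 268 against 246, 242, 201 and 217 on NCD, without overlap, and at 91.6, 86.5, 96.8, 90.4 and 76.1 against 94.3, 89.1, 95.7, 105, 95.5 and 93.6 on HFD, with overlap. The count of 6 ranged from 0 to 12 as single livers were left out, at 12 without NCD control 4 and 0 without NCD control 3.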

How the data were processed

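Total RNA was sequenced from stranded libraries after removal of ribosomal RNA, per the labels' protocols. Kallisto, DESeq2 and mm10 appear in the submitters' processing notes with neither versions nor roles. The authors' annotation is not given in the sources used here. Of the files, the conventional table holds deposited counts, 4474760 to 8837581 per library. The other 3 tables hold deposited values treated as a score: whole numbers whose columns sum to 833910 to 975752, an unnamed unit that resembles a rounded, length-scaled one. Their depth is unknown, so no counting interval is given, and they were tested by the design's rule for tables without counts. Score tables were scaled by trimmed mean of M-values (TMM), filtered at a mean of at least 3, and log2(value + 1) was tested with limma-trend (limma 3.58.1, robust). That scale understates the change of low genes. Counts were tested with edgeR 4.0.16 (filterByExpr, TMM, quasi-likelihood, robust, R 4.3.3) and printed as CPM. Each table had 1 fit over all of its groups. Benjamini-Hochberg adjustment ran over all genes of a comparison, and a gene was called at an adjusted p below 0.05. The diet difference used the 2 within-table estimates with Welch-Satterthwaite degrees of freedom. The scripts were checked on simulated data.

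Copies of members were found with BLAST 2.17.0 against GENCODE M21 transcripts, the annotation used here for lengths and positions, which may not be the one the authors used. Samples were grouped by their titles, and 4 liver control columns whose names fit more than 1 label (Ctrl-1 to Ctrl-3) carry a group without a replicate number. Members named were the 3 with the largest change in each direction among those called in a comparison, and a list of members fixed by role; in each table a few others (Rps13, Rpl4, Rpl13, Rps26, the most abundant rows, members not called) were named after their values were seen. Some members are counted but not reported by name here. The members, lists and tests were chosen with earlier results of these data known. Alternatives covered scaling, filters, pseudocount, a replicate block, DESeq2 1.42.0, the length trend, the members' copies, identical rows and leaving out each replicate.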

Additional observations from a re-analysis of the deposited data

Results flagged for a closer look

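In the NCD knockout livers, Rpl37 was at a scaled value of 26.1 in KO 4, apart from 17.9 to 19.1 in the other 3. In the HFD controls the members summed to 3771 in Ctrl-2, apart from 4064 to 4134 in the others. These came from 40 liver groups and values that were looked at, of which chance alone sets apart about 1 in 20.

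The lines and diets differed in how the members responded, by a test of the difference itself. The response to doxycycline against no doxycycline differed between the lines, with 74 members called higher in the Falcor line and 1 lower. Of all genes, 33.9% were called higher and 31.0% lower. Against the restored state 65 were higher and 2 lower, beside 31.7% and 28.8% of all genes. The knockout's change differed between HFD and NCD in 6 members, all with a higher value on HFD. Of all genes, 2.51% were called higher there and 4.62% lower. Without rescaling 0 members were called between the diets, and the count varied as single livers were left out.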

How the results depend on the processing

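Counts of members called are given as the alternative's value against the reported one. With the trend over transcript length removed, the counts that moved by more than 1.5 times were, for higher members, 2 against 0 (untreated lines), 7 against 1 (restored lines), 74 against 43 (control line with doxycycline), 2 against 1 (conventional Falcor) and 4 against 2 (Falcor against ZC3H11A). For lower members they were 7 against 4 (lines with doxycycline), 0 against 1 (control line with doxycycline), 48 against 31 (control line, restored against doxycycline), 10 against 3 (Falcor line, restored against untreated), and 3 against 1 and 7 against 2 (differences between lines, doxycycline minus untreated and minus restored). Without rescaling, which moved the median of all genes by up to 0.24 (the diet difference), higher members were 8 against 1 (restored lines), 3 against 1 (conventional Falcor), 5 against 2 (Falcor against ZC3H11A), 15 against 4 (NCD) and 0 against 6 (diet difference), and lower ones 4 against 1 (control line with doxycycline), 19 against 12 (control line, restored against untreated), 1 against 0 (Falcor line with doxycycline), 6 against 3 (Falcor line, restored against untreated), and 3 against 1 and 5 against 2 (differences between lines). It also moved the members' median by over 1.5 times to -0.22 in the untreated lines, -0.18 in the restored lines, -0.35 in the Falcor line restored against doxycycline, 0.32 and 0.29 in the differences between lines, -0.16 for conventional Falcor, 0.24 in NCD and 0.10 in HFD. In the diet difference the members' median turned to -0.19 without rescaling. With no filter on low values, higher members were 0 against 1 (restored lines), 0 against 1 (Falcor line, restored against doxycycline), 1 against 4 (NCD) and 2 against 6 (diet difference). With members left out of the scale factors the Falcor line, restored against doxycycline, had 0 against 1 higher. With copies added, higher members were 0 against 1 (restored lines), 0 against 1 (Falcor line, restored against doxycycline) and 12 against 6 (diet difference), and lower ones 0 against 1 and 1 against 2 (differences between lines). Rpl5 then changed sign, to -0.10 in the restored lines, -0.36 in the Falcor line restored against doxycycline and 0.10 in the difference of doxycycline minus untreated. With the identical rows left out, the diet difference had 2 against 0 lower. The cause of these changes was not tested.

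Leaving out each replicate in turn gave these ranges of higher and lower members: untreated lines 0 to 0 and 77 to 80; lines with doxycycline 27 to 33 and 2 to 4; restored lines 0 to 1 and 61 to 65; control line with doxycycline 33 to 73 and 1 to 4, restored against doxycycline 14 to 16 and 25 to 29, restored against untreated 23 to 50 and 7 to 20. In the Falcor line the same 3 steps gave 81 to 81 and 0 to 1, 0 to 1 and 80 to 80, and 31 to 42 and 2 to 4. The differences between lines gave 74 to 77 and 1 to 2, and 64 to 65 and 2 to 2. Conventional Falcor gave 1 to 2 and 55 to 63, ZC3H11A 32 to 42 and 7 to 10, and their direct comparison 2 to 4 and 62 to 65. NCD gave 0 to 14 and 0 to 4, HFD 0 to 0 in both directions, and the diet difference 0 to 12 and 0 to 4.

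Libraries with the same replicate number did not deviate together (r of their deviations -0.14 to 0.14 over 45 inducible pairs and -0.06 to 0.14 over 9 conventional pairs), so the numbers were not taken to pair them. With a replicate block the counts were close to the reported ones, such as 0 higher and 79 lower in the untreated lines, 81 and 0 in the Falcor line with doxycycline, 1 and 60 for conventional Falcor and 41 and 11 for ZC3H11A. No paired analysis was possible for the livers because some control columns carry no replicate number. DESeq2 gave 1 higher and 60 lower for conventional Falcor, 42 and 10 for ZC3H11A, and 2 and 64 for their direct comparison. Depth is unknown for the score tables, and rounding to whole numbers limits low rows such as Rps27rt.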
